A study of Homo sapiens with 7 samples.

Results

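The resveratrol array was compared with the 4 other arrays of HT1080 cells that had received no test serum, namely the catechin, epicatechin, taxifolin and untreated arrays. HT1080 is an established human fibrosarcoma line. The comparison used 5 of the 7 arrays in the series, all of the Affymetrix U133 Plus 2.0 design, with 1 array per condition. Resveratrol was present for 2 h at 2195 ng/ml. The flavonoids were present for the same time at far lower doses, of 11.25 ng/ml for catechin and 6.25 ng/ml for both epicatechin and taxifolin. The untreated culture is labelled with no treatment, and no time, medium change or solvent is given for it. All cultures were kept in modified Eagle's medium with fetal bovine serum. Per the labels, treated wells were seeded a day ahead and their medium was exchanged before the compound went in, and whether the new medium held fetal bovine serum is not given. The remaining pair of arrays, with control serum or serum of people given pycnogenol, served only as a further reference. Because the doses differ widely, the values of the compounds are set side by side and an effect of structure cannot be told apart from that of dose.

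Members were the probe sets that name 1 gene and whose mean signal over the 7 arrays was at least 269, which held for 17795 of 54675 probe sets and for 9950 of 19775 annotated genes. A probe set is a group of short probes that reads 1 stretch of a transcript, and its signal is a linear intensity that is proportional to transcript abundance only within that probe set. For each, the log2 signal with resveratrol minus the mean log2 signal of the 4 reference arrays was taken (the difference), and whether resveratrol lay outside the range of those 4 was recorded. A difference of 1 is 2-fold. A gene's signal is the geometric mean, and its difference the mean, over its probe sets. With 1 array per condition there is no replicate check and no test, and all values describe these single arrays.

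Resveratrol is a plant stilbene, whereas catechin and epicatechin are stereoisomeric flavan-3-ols and taxifolin is a dihydroflavonol. In cultured cells resveratrol is known as an inhibitor of cyclooxygenases and of ribonucleotide reductase, as an antagonist of the aryl hydrocarbon receptor, and as a compound that activates the energy sensor AMPK and, by a debated route, the deacetylase SIRT1. It slows S phase in many tumour lines and, at higher doses, raises stress and apoptosis genes.

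Cell type markers were read beside the labels, and by themselves they do not identify the line. Of 12 fibroblast and fibrosarcoma markers 9 passed the filter, VIM and FN1 among them, and S100A4, COL6A2 and THY1 did not. The summed signal of the list was 188032 with resveratrol against 185014 to 196065 in the reference arrays. TAGLN, the dimmest of the 9, had a difference of 0.97, with 327 untreated and 372 with resveratrol, and the serum arrays read higher still. Of 10 epithelial markers, KRT8 and KRT18 passed, and 8 were under 269 in all 5 arrays. KRT18 was bright, with a mean over the 7 arrays of 18145.5, against 7921 for FN1 and 48243 for VIM. The summed signal of the epithelial list was 23613 with resveratrol against 21184 to 22194. Of 7 endothelial markers, TIE1 passed (summed signal 1245 against 1174 to 1348), and of 7 blood cell markers, HBB passed (738 against 611 to 631), with 6 of each list under 269 in all 5 arrays. The median signal over all probe sets was 136 with resveratrol, the highest of the 7 arrays, against 121 to 128 in the reference arrays. The ratio of the probe sets for the 3′ and 5′ ends of ACTB, a sign of RNA integrity, was 2.52 with resveratrol and 2.40 untreated, and 3.05 to 4.02 in the 3 flavonoid arrays. What part these gaps have in the results below was not tested.

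Few probe sets were 2-fold apart, and many were slightly outside the range. With resveratrol, 20 probe sets (0.112% of those compared) were at least 2-fold higher and above the range, and 36 (0.202%) were at least 2-fold lower and below it. Regardless of the range, 57 probe sets (0.32%) were 2-fold apart. Of all probe sets, 3947 (22.2%) were above the range and 4111 (23.1%) below. At the gene level 11 genes (0.111%) were 2-fold higher and above the range and 15 (0.151%) were 2-fold lower and below it, 26 genes together (0.261%). RAD54L2 was 2-fold lower too but within the range, so that 16 genes (0.161%) were 2-fold lower regardless of it. Whatever their size, 2300 differences (23.1%) lay above the range and 2229 (22.4%) below it. After quantile normalization or cyclic loess of the arrays the split of 11 and 15 genes became 10 and 21, or 8 and 19. Without the signal filter the split turned, to 1627 higher and 604 lower probe sets and to 550 higher and 155 lower genes. The probe sets nearest the threshold were those of ZDHHC2 (1.00) and MAPK11 (-1.004) inside it and of MPV17L (0.99) and HEATR1 (-0.998) outside it. Over all genes the differences had a median of 0.0076 and an SD across genes of 0.2225. They were positive for 5163 genes (51.9%) and negative for 4787.

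The same reading was made for each of the other 4 arrays against its 4 partners. Probe sets 2-fold and outside the range numbered 56 for resveratrol, 43 for untreated, 39 for epicatechin, 33 for catechin and 30 for taxifolin. The share outside the range was 45.3% for resveratrol and 41.9%, 41.3%, 36.3% and 35.1% for the others in that order. These readings share arrays and are not independent. In the 4 pairs that include resveratrol the SD of the pairwise log2 differences was 0.283 to 0.321, and in the other 6 pairs it was 0.265 to 0.288, so the ranges overlap.

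**Figure D1:**
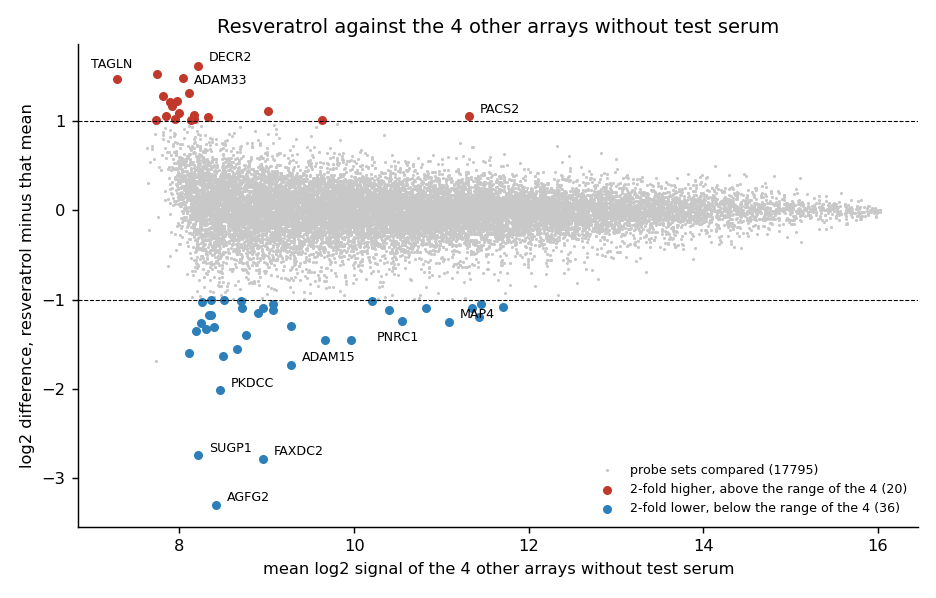
Each point is a probe set: its mean log2 signal over the 4 reference arrays (horizontal axis) and the log2 difference of resveratrol from that mean (vertical axis), with dashed lines at 2-fold. The 20 red and 36 blue points are the probe sets at least 2-fold higher or lower and outside the range, and they sit mostly at the dim end, with PACS2 and MAP4 among the brighter ones.

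Most of the 2-fold genes were dim. The resveratrol signal was under 269 for 25 of the 36 lower probe sets, and for 17 of the 20 higher ones at least 1 reference array was under 269. DECR2, the peroxisomal 2,4-dienoyl-CoA reductase that helps degrade unsaturated fatty acids, had the largest positive difference. Its signal was 494 with catechin, 400.2 with epicatechin, 265 with taxifolin, 148 untreated and 909.7 with resveratrol, a difference of 1.62. The reference arrays themselves spread widely for DECR2, and resveratrol was above each of them. ADAM33, a metalloprotease, read 78.1 with catechin, 402 with epicatechin, 551 with taxifolin, 278 untreated and 733 with resveratrol (difference 1.48), with the catechin array far below the other references. KLK4, a kallikrein protease, read 187 with catechin, 335 with epicatechin, 161 with taxifolin, 251 untreated and 546 with resveratrol (difference 1.28). LFNG, the Fringe glycosyltransferase that modifies Notch receptors, read 158 with catechin, 263 with epicatechin, 259 with taxifolin, 262 untreated and 480.2 with resveratrol (difference 1.06). The control and pycnogenol serum arrays read LFNG at 323 and 482.2. All 4 references of LFNG were under 269, so it passed the filter only through the resveratrol and serum arrays. In these genes resveratrol was above all 4 references, as their choice requires, and the references differed among themselves by up to several-fold. All 4 genes rest on 1 probe set each.

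Among the lower genes, CACNG4 and PNRC1 were the brightest. CACNG4, a regulatory subunit of calcium channels and AMPA receptors, read 838 with catechin, 968 with epicatechin, 636 with taxifolin, 842 untreated and 296 with resveratrol, a difference of -1.46. PNRC1, a nuclear receptor coactivator, read 1177 with catechin, 1857 with epicatechin, 1169 with taxifolin, 1993 untreated and 635 with resveratrol, a difference of -1.24. Both serum arrays read PNRC1 lower still, at 560 and 394. ADAM15, a membrane metalloprotease with a disintegrin domain, read 464 with catechin, 633 with epicatechin, 540.5 with taxifolin, 941 untreated and 188 with resveratrol (difference -1.73), while the control serum array read 591 and the pycnogenol serum array 175. AGFG2, an ArfGAP-domain protein with FG repeats, had the most negative difference, at -3.30. It read 399 with catechin, 368 with epicatechin, 377 with taxifolin, 249.8 untreated and 33.5 with resveratrol. The resveratrol value lies just under the floor of 34.9 applied to all signals and was raised to it. The size of the AGFG2 difference thus rests on a signal at the floor. FAXDC2, a fatty acid hydroxylase domain protein, read 799 with catechin, 551 with epicatechin, 498 with taxifolin, 280.3 untreated and 72.4 with resveratrol (difference -2.78), and PKDCC, a secreted tyrosine kinase, read 284 with catechin, 371 with epicatechin, 427 with taxifolin, 346 untreated and 87.4 with resveratrol (difference -2.02). MAP1LC3A, an autophagosome protein, read 302 with catechin, 386 with epicatechin, 202 with taxifolin, 424 untreated and 126 with resveratrol (difference -1.33). Each of these rests on 1 probe set.

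Where a gene had several probe sets, the 2-fold reading was rarely shared. Of the 20 higher probe sets 9 belong to genes with others above the filter. The other probe sets of 5 of these 9 all had the same sign, and no other probe set reached 2-fold. Of the 36 lower ones, 22 had others, of which 10 agreed in sign throughout and none reached 2-fold. The median difference of the brightest other probe set was 0.29 for the higher and -0.051 for the lower group, against median sizes of 1.06 and 1.10 for the 2-fold probe sets themselves. SUGP1, a splicing-associated protein, shows the contrast: 1 probe set read 338 with catechin, 461 with epicatechin, 115 with taxifolin, 432 untreated and 44.3 with resveratrol (difference -2.74), and the other read 627 with catechin, 608 with epicatechin, 634 with taxifolin, 621 untreated and 622 with resveratrol (difference 0.00048). For SRPRA, the docking subunit of the signal recognition particle receptor, the probe sets had opposite signs, at -1.11 and 0.30. LMLN, a metalloprotease, likewise had -1.63 and 0.24. PACS2, which sorts proteins between the endoplasmic reticulum and mitochondria, had 1 bright probe set at 2412 with catechin, 2709 with epicatechin, 3213 with taxifolin, 2032 untreated and 5289 with resveratrol (difference 1.05), and its other 3 were between -0.14 and 0.40. OR51B5 (an olfactory receptor gene), ZNF664 (a zinc finger gene) and ZDHHC2 (a palmitoyltransferase) had 1 probe set past 2-fold at 1.11, 1.05 and 1.00, with brighter probe sets at -0.02 for OR51B5, -0.07 for ZNF664, and both 0.17 and -0.38 for ZDHHC2, the last below the range. MAP4, which binds microtubules, ran from -1.25 to 0.12 over 6 probe sets, and FKBP15 from -1.26 to 0.10 over 4.

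A stricter reading asked that every probe set of a gene lie outside the range on the same side, which is possible for the 4750 genes with at least 2 probe sets. It held for 216 genes above the range (4.55%) and 227 below (4.78%). Probe sets of a gene on 1 array share its RNA, labelling and hybridization, so their agreement says nothing about another culture. The differences of these genes were small, with medians of 0.27 and -0.29, and 5 of the 216 and 15 of the 227 were past 1.5-fold. The same reading gave 317 genes in both directions for untreated, 321 for epicatechin, 240 for catechin and 217 for taxifolin, against 443 for resveratrol. Centring each array on its median instead gave 309 above and 173 below, and 199 of the 216 and 206 of the 227 were also found after quantile normalization. Without the catechin array, where the range is taken over 3 arrays and is narrower, 683 genes qualified. Of the agreeing genes, 137 of 216 (63.4%) were above both serum arrays too and 131 of 227 (57.7%) were below them, close to the 60.6% and 56% for all genes above or below the range of the 4.

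The 15 highest of these genes are given with their known roles, which were not counted as a group. FAM111B, a nuclear protease of replicating cells, read 687 with catechin, 623 with epicatechin, 627 with taxifolin, 559.8 untreated and 988 with resveratrol (difference 0.67). CCNE2, the cyclin E2 that drives entry into S phase, read 1489.7 with catechin, 1011 with epicatechin, 1338 with taxifolin, 1164 untreated and 1771 with resveratrol (difference 0.52). GINS4, a subunit of the replicative helicase, read 616 with catechin, 513 with epicatechin, 656 with taxifolin, 612 untreated and 845 with resveratrol (difference 0.50). In all 3 the resveratrol signal was the highest of the 5 arrays, as the choice of these genes requires. RFC3, a subunit of the loader of the sliding clamp PCNA, read 2259 with catechin, 2074 with epicatechin, 1921 with taxifolin, 2245 untreated and 2984 with resveratrol (difference 0.49). BRIP1, a helicase of interstrand crosslink repair, read 669 with catechin, 560.3 with epicatechin, 721 with taxifolin, 661 untreated and 929 with resveratrol (difference 0.52). Both serum arrays read FAM111B and CCNE2 above resveratrol, at 1082 and 1346 for FAM111B.

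NECAB3, an EF-hand calcium-binding protein, had the largest difference, with 317 with catechin, 292 with epicatechin, 289 with taxifolin, 293 untreated and 519 with resveratrol (difference 0.80). Its probe sets differed in size, at 1.17 and 0.44. TGFB2, the ligand transforming growth factor beta 2, read 727 with catechin, 744 with epicatechin, 661 with taxifolin, 737 untreated and 1059.8 with resveratrol (difference 0.56). TRADD, the adaptor of the tumour necrosis factor receptor, read 691 with catechin, 660.0 with epicatechin, 731 with taxifolin, 688 untreated and 1004 with resveratrol (difference 0.54). The gene-level values of the reference arrays lay close together for TGFB2 and TRADD, with resveratrol above them by the choice of these genes. The differences of the remaining genes were 0.69 for CEP85 (a centrosomal protein), 0.66 for ZNF446 (a zinc finger protein), 0.59 for PLA2G6 (a calcium-independent phospholipase A2), 0.52 for EZH1 (a histone H3 lysine methyltransferase), 0.51 for the noncoding APCDD1L-DT, 0.50 for the exocyst subunit EXOC7 and 0.49 for the mitochondrial aldehyde dehydrogenase ALDH1B1. Some of these means join a large and a small value. The dimmer and brighter probe sets were at 1.06 and 0.32 for CEP85, 0.89 and 0.12 for APCDD1L-DT and 0.87 and 0.10 for ALDH1B1. Those of EXOC7 were closer, at 0.60 and 0.41, as were those of EZH1, at 0.65 and 0.39.

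The 15 lowest were described in the same way. PCSK5, a proprotein convertase that cleaves growth factor precursors, read 512 with catechin, 415 with epicatechin, 418 with taxifolin, 431 untreated and 251 with resveratrol (difference -0.82). IGF1R, the receptor of insulin-like growth factor 1, read 1143 with catechin, 1413 with epicatechin, 1201 with taxifolin, 1303 untreated and 819 with resveratrol (difference -0.62) over 3 probe sets. ELK1, an ETS factor that drives serum response genes, read 824 with catechin, 824 with epicatechin, 820.4 with taxifolin, 917 untreated and 551 with resveratrol (difference -0.62). Resveratrol lay beneath the references in each, as the choice of these genes requires. The gene-level references of ELK1 average probe sets that spread in opposite ways: untreated was the highest on the one, at 2018 against 1191 to 1315 for the flavonoids, and the lowest on the other, at 416 against 516 to 566. EP400, the ATPase of a histone exchange complex, read 1350.4 with catechin, 1393 with epicatechin, 1301 with taxifolin, 1519.7 untreated and 820.0 with resveratrol (difference -0.76), and 1 of its 3 probe sets reached -1.45 while the other 2 were at -0.44 and -0.39. EP300, the histone acetyltransferase p300, read 1751 with catechin, 2028 with epicatechin, 1696 with taxifolin, 1898 untreated and 1214 with resveratrol (difference -0.60). DYNC1H1, the heavy chain of cytoplasmic dynein, read 4361 with catechin, 4590.1 with epicatechin, 4883 with taxifolin, 5781 untreated and 3040.1 with resveratrol (difference -0.68), where the untreated array was the highest. The differences of the others were -0.73 for SNX29 (a sorting nexin), -0.65 for PTPRD (a receptor tyrosine phosphatase), -0.65 for MYCBP2 (an E3 ubiquitin ligase), -0.61 for PLXNA2 (a semaphorin receptor), -0.61 for RHOF (a small GTPase), -0.61 for the noncoding LINC00467, -0.61 for TAF15 (an RNA-binding protein), -0.59 for GOLM2 (a Golgi membrane protein) and -0.59 for MAP1B (a microtubule-associated protein). Here too probe sets of a gene could differ in size, at -1.17 and -0.28 for SNX29 and -0.78 and -0.41 for GOLM2. For RHOF 1 of 3 was at -1.15 and the brightest other at -0.36. Those of ELK1 were alike, at -0.63 and -0.61.

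**Figure D2:**
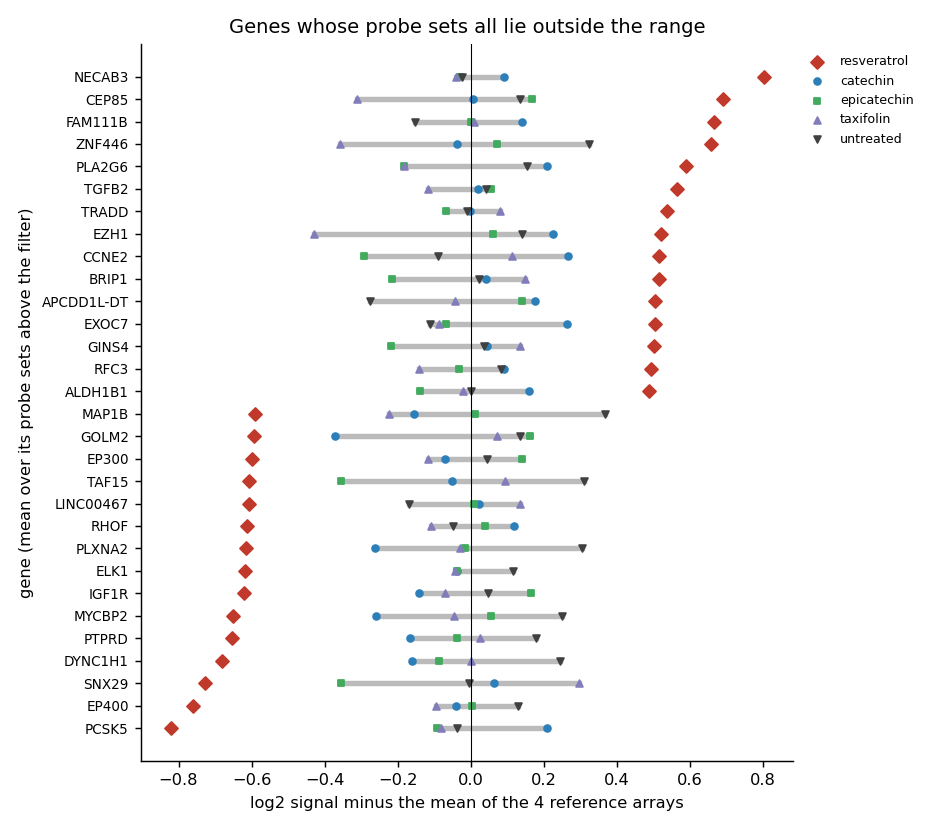
The 15 highest and 15 lowest genes of which all probe sets lay outside the range, with the log2 signal of each array minus the mean of the 4 reference arrays on the horizontal axis and a grey bar for the reference range. The resveratrol diamonds lie between 0.49 and 0.80 for the higher genes and between -0.82 and -0.59 for the lower ones, outside every grey bar, as the choice of these genes requires.

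Genes of the G1/S transition and DNA replication lay mostly on the high side with resveratrol. Of 42 compared, 34 were positive and 8 negative, 23 were above the range (54.8%, against 23.1% of all genes) and 4 below, and the median difference was 0.11 against 0.0076 over all genes. Among all genes 51.9% were positive and 22.4% below the range. ORC1, a subunit of the origin recognition complex, read 887 with catechin, 597 with epicatechin, 846 with taxifolin, 637 untreated and 1124 with resveratrol (difference 0.62). CDC45, which activates the replicative helicase, read 2012 with catechin, 1897 with epicatechin, 1868 with taxifolin, 1996 untreated and 2531 with resveratrol (difference 0.38), and here the 4 references lay close together. TK1, thymidine kinase, had a difference of 0.37 and CCNA2, cyclin A2, one of 0.10, both above the range. CCNE2, CCNA2, RFC3 and TK1 were above it with all of their probe sets. On the low side were CCND2, cyclin D2, at -0.35, and E2F2, a transcription factor of the same pathway, at -0.22.

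On this list the resveratrol array read close to the serum arrays. The median difference was 0.00 between resveratrol and control serum and -0.05 between resveratrol and pycnogenol serum. Read against their own 4 partners, the medians of the other arrays for the same list were 0.05 for catechin, 0.01 for taxifolin, -0.06 for epicatechin and -0.06 for untreated. Over the 19 alternative settings the resveratrol median stayed between 0.07 and 0.17.

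**Figure D3:**
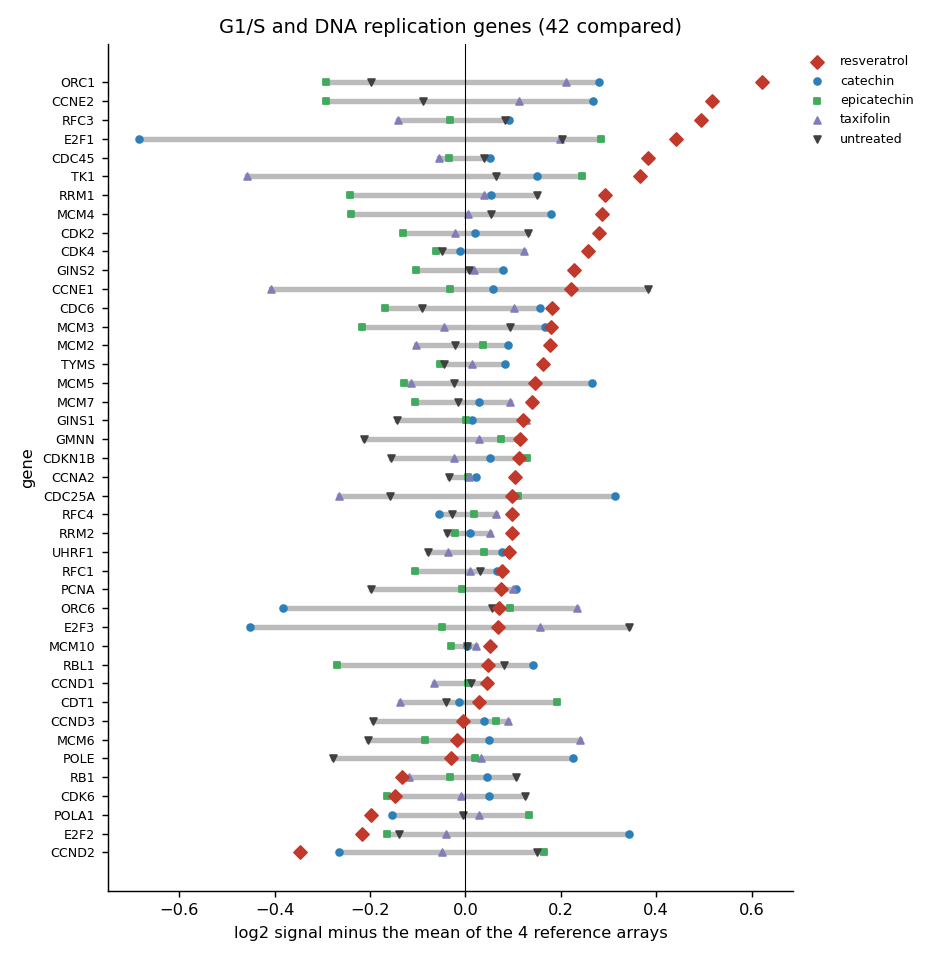
The 42 G1/S and DNA replication genes in order of the resveratrol difference, with each array's log2 signal minus the mean of the 4 reference arrays on the horizontal axis and grey bars for the reference range. Resveratrol is at the right of 0 for 34 genes and beyond the right end of the bar for 23, with ORC1 highest at 0.62 and CCND2 lowest at -0.35.

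E2F factors bind and switch on many genes of this list in S phase, and the promoters of 36 of the members were present in the RefSeq table (GRCh38.p14, 250 bases before to 50 after the start). The octamers TTTCGCGC and TTTGGCGC, sought on both strands, occurred in 12 of these 36 (33.3%), against 322 of 27305 promoters in all (1.18%) and 184 of the 8286 of genes compared here (2.22%). Many members were already known as E2F targets, so this share describes the list and not the resveratrol array. The octamers were present in 3 of 183 genes with all probe sets above the range (1.64%) and 2 of 187 below it (1.07%). The windows of ORC1 and RFC3 hold neither. Among genes with a match, MCM6 (-0.02), POLE (-0.03), POLA1 (-0.20) and E2F2 (-0.22) had negative differences and the others positive ones. The 3 promoters with a match and the highest differences are shown to place the motif, in capitals, beside the values: E2F1 at chr20:33686336-33686635 (minus strand), the E2F factor itself, CDC6 at chr17:40287629-40287928 (plus strand), which loads the helicase at origins, and MCM3 at chr6:52284693-52284992 (minus strand), a helicase subunit. The match begins at -20, 7 and -4 from the start site, and a match is a description, not a bound site.
E2F1: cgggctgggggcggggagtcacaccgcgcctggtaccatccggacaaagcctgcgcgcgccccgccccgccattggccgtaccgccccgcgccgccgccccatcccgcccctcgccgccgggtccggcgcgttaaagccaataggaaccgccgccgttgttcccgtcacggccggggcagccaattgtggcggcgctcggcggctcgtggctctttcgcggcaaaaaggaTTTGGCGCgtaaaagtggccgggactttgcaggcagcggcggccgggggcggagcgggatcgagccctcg
CDC6: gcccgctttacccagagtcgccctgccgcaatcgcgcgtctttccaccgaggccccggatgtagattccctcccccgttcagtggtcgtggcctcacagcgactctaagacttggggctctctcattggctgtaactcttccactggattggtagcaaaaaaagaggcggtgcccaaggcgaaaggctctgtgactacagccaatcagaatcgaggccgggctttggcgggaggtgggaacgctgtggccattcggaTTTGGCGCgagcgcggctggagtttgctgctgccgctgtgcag
MCM3: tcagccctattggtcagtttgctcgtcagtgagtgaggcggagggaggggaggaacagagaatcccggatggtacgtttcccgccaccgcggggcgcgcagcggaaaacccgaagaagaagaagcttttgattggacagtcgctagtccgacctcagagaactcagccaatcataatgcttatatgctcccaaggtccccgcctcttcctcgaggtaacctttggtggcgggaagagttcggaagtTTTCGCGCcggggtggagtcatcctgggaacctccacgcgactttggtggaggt

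E2F1 read 197 with catechin, 385 with epicatechin, 363 with taxifolin, 364 untreated and 429 with resveratrol, a difference of 0.44, with catechin far below the other references. The 2 probe sets of E2F1 were at 0.09 and 0.79. CDC6 read 3252 with catechin, 2599 with epicatechin, 3134 with taxifolin, 2743 untreated and 3309.7 with resveratrol (difference 0.18). MCM3 read 6812 with catechin, 5222 with epicatechin, 5876 with taxifolin, 6472 untreated and 6865 with resveratrol (difference 0.18). All 3 were above the range, by a small step over the nearest reference.

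DNA damage and repair genes followed the same side. Of 48 compared, 32 were positive, 20 were above the range (41.7%) and 6 below (12.5%), and the median was 0.09. For this list and the next ones, the shares over all genes were 51.9% positive, 23.1% above the range and 22.4% below. RAD54L, a motor protein of homologous recombination, read 955 with catechin, 898 with epicatechin, 856 with taxifolin, 763 untreated and 1309.9 with resveratrol (difference 0.60). DAXX, a histone chaperone that is also counted among the apoptosis regulators, was above the range at 0.53. Its probe sets were at 0.98 and 0.08, the latter within the range. XRCC6, a subunit of the Ku end-binding complex, had a difference of 0.40, and its partner XRCC5 one of 0.15 with all probe sets above the range, as for the mismatch repair protein MSH6 at 0.24. PRKDC, the kinase that Ku recruits, was on the other side at -0.43 with all probe sets below it. RAD54L2, an ATPase related to RAD54L, had a gene difference of -1.26 but was not below the range, since epicatechin read 154 and resveratrol 164. Of 38 G2/M and mitosis genes, 26 were positive, 12 were above the range (31.6%) and 3 below (7.89%), with a median of 0.06. ANLN, a scaffold of the cleavage furrow, read 10831 with catechin, 9829 with epicatechin, 10026 with taxifolin, 9604 untreated and 12456 with resveratrol (difference 0.31), and the kinase AURKB was above the range at 0.31. The mitotic kinase PLK1 read 806 with catechin, 634 with epicatechin, 725 with taxifolin, 712 untreated and 484 with resveratrol (difference -0.57), opposite to the list. Of 13 replication-dependent histone genes compared, 12 were positive and 6 above the range (46.2%), with a median of 0.17. H2BC21 and H2BC4 had differences of 0.58 and 0.54, H2BC5 was above with all probe sets at 0.35, and H4C11 one of -0.54. Histone genes share sequence, so their probe sets may read more than 1 of them, and 13 of the 40 annotated genes were bright enough to compare.

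Chromatin remodellers lay on the low side. Of 44 compared, 29 were negative, 20 were below the range (45.5%, against 22.4% of all genes) and 7 above (15.9%), and the median was -0.13. Among all genes 4787 of 9950 were negative and 23.1% above the range. Besides EP400 and EP300, all probe sets of CHD7 (-0.42, a CHD-type remodeller) and SMARCC2 (-0.36, a SWI/SNF core subunit) were below the range. The methyltransferase KMT2D read 768 with catechin, 658 with epicatechin, 811 with taxifolin, 897 untreated and 549 with resveratrol (difference -0.50), and KMT2A was at -0.43. On the high side MTA3, a subunit of the NuRD complex, was at 0.40. The list median was 0.12 for the untreated array, 0.02 for catechin, 0.00 for taxifolin and -0.02 for epicatechin, so untreated and resveratrol were at opposite ends. Over the 19 alternatives the resveratrol median stayed between -0.20 and -0.08. Of 52 splicing and nuclear speckle genes, 20 were above the range (38.5%) and 9 below (17.3%), with a median of 0.06. HNRNPA2B1, HNRNPM, RBM5 and, by its single probe set, the helicase DDX5 (0.52) were above the range, the first 3 with all probe sets (differences 0.29, 0.19 and 0.24), whereas SRRM2, the scaffold of nuclear speckles, read 3054 with catechin, 3584 with epicatechin, 2684 with taxifolin, 3568 untreated and 2145 with resveratrol (difference -0.58) and PRPF6, a subunit of the tri-snRNP, was at -0.56, both below with all probe sets.

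Many of the lowest genes are long, and the difference was therefore read against genomic span (the length from first to last base of the gene, introns included), a reading added after the values were seen. Across the 9942 genes with a RefSeq span, in 5 groups of about equal size, the median resveratrol difference was 0.035 for spans up to 10.0 kb, 0.023, 0.018 and -0.008 for the next groups and -0.036 for spans over 95.0 kb. Above the range were 27.4% of the shortest and 16.5% of the longest genes, and below it 16.4% and 31.1%. The Spearman correlation across genes was -0.141 for resveratrol, 0.147 for untreated, and between -0.013 and 0.009 for the 3 flavonoids. These genes share arrays and are not replicates. Agreeing genes below the range had a median span of 79.4 kb, those above it 27.1 kb and all genes with several probe sets 42.1 kb. PTPRD spans 2299 kb, SNX29 598 kb and PCSK5 473 kb, whereas the low genes ELK1 and RHOF span 15.1 and 15.9 kb.

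The order was also present without the untreated array, and was larger against it alone. Against catechin, epicatechin and taxifolin alone, the resveratrol correlation was -0.115, with medians from 0.025 for the shortest to -0.031 for the longest genes. Against untreated alone it was -0.171, and catechin, epicatechin and taxifolin against untreated gave -0.100, -0.100 and -0.105. The 3′ to 5′ ratio of ACTB was 2.40 untreated, 2.52 with resveratrol and 3.05 to 4.02 in the 3 flavonoid arrays. The ratio for GAPDH was 0.961 with resveratrol and 1.02 to 1.12 in the references. What part RNA integrity or labelling has in the order was not tested.

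**Figure D4:**
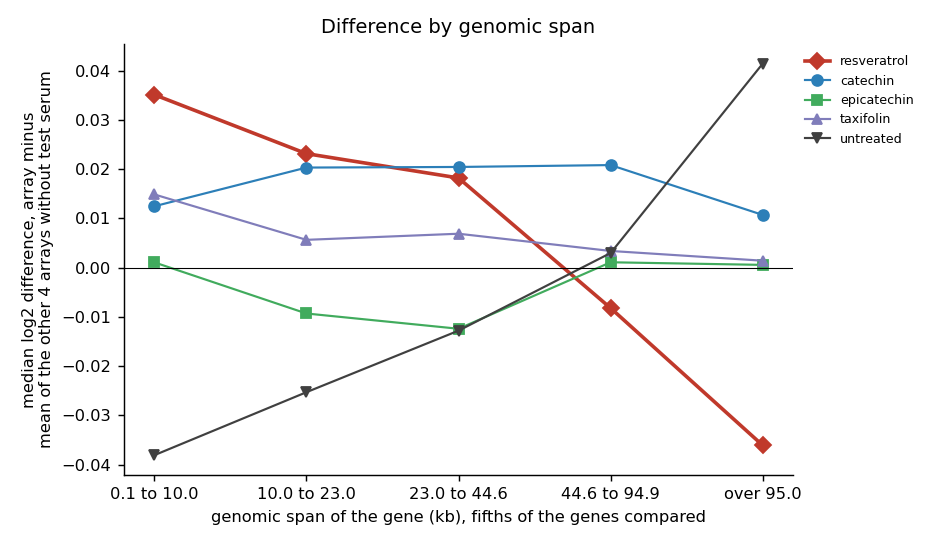
Median log2 difference of each of the 5 arrays from the mean of its 4 partners (vertical axis) in 5 groups of the 9942 genes by genomic span in kb (horizontal axis). The resveratrol line goes from 0.035 to -0.036 and the untreated line from -0.038 to 0.041, while the 3 flavonoid lines stay within 0.021 of 0.

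Among the proteins that resveratrol is known to bind or act on, no member was 2-fold apart, where only 0.271% of all genes were. Of 15 compared, 11 were positive, where 51.9% of all genes were. Above the range were 6 (40%, against 23.1% of all genes) and below it 1 (6.67%, against 22.4%). The median was 0.07. RRM1, the large subunit of ribonucleotide reductase, read 6887 with catechin, 5614 with epicatechin, 6814 with taxifolin, 7367 untreated and 8129 with resveratrol (difference 0.29), but its probe sets disagreed: the dimmer one was at 0.62 and the brighter one at -0.03, within the range. RRM2, its small subunit, read 16850.1 with catechin, 16489.7 with epicatechin, 17357 with taxifolin, 16294 untreated and 17903 with resveratrol (difference 0.10). PTGS2, the inducible cyclooxygenase, read 343 with catechin, 322 with epicatechin, 371 with taxifolin, 387 untreated and 394 with resveratrol (difference 0.15), barely above untreated. PDE4B, a cyclic AMP phosphodiesterase, had a difference of 0.43, and its relative PDE4A one of 0.23. SIRT1 read 2537 with catechin, 2185 with epicatechin, 2167 with taxifolin, 2358 untreated and 2464 with resveratrol (difference 0.09), and NQO2, a quinone reductase that binds resveratrol, read 1716 with catechin, 1659.6 with epicatechin, 1585 with taxifolin, 1724 untreated and 1666 with resveratrol. SIRT1 and NQO2 lay within the reference range. AHR, the aryl hydrocarbon receptor, was the lowest of the list at -0.14 and its only member below the range. The other targets ran from -0.04 for KEAP1, the repressor of NRF2, through MAOA (-0.01, monoamine oxidase A), ATP5F1A (0.03, an ATP synthase subunit), LTA4H (0.05, leukotriene A4 hydrolase), YARS1 (0.06, tyrosyl-tRNA synthetase) and CBR1 (0.07, carbonyl reductase) to ATP5F1B at 0.08. In the list of sirtuins, AMPK and mitochondrial biogenesis, 4 of 35 genes were above the range (11.4%) and 12 below (34.3%), with a median of -0.04. PRKAA2, a catalytic subunit of AMPK, read 470.1 with catechin, 498 with epicatechin, 441 with taxifolin, 511 untreated and 347 with resveratrol (difference -0.47) and was below the range with all 3 probe sets, and CAMKK2, a kinase that activates AMPK, read 1684 with catechin, 1511 with epicatechin, 1399 with taxifolin, 1832 untreated and 1262 with resveratrol (difference -0.34). The probe sets of CAMKK2 went opposite ways, at -0.85 and 0.17. STRADA, a partner of the upstream kinase LKB1, was above the range with all probe sets at 0.30. PRKAA1, the other catalytic subunit, was at 0.07. POLG, the mitochondrial DNA polymerase, had a difference of 0.35 but lay within a wide reference range.

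Xenobiotic and antioxidant lists had members on both sides. The shares over all genes were 23.1% above the range and 22.4% below. In the aryl hydrocarbon receptor list, 5 of 23 genes were above the range (21.7%) and 4 below (17.4%), with a median close to 0. ARNT, the receptor's partner, read 488 with catechin, 463 with epicatechin, 534 with taxifolin, 421 untreated and 712 with resveratrol (difference 0.59). AHRR, its repressor, read 677 with catechin, 669 with epicatechin, 702 with taxifolin, 612 untreated and 508 with resveratrol (difference -0.39). The partner was thus above the range and the repressor below it, each on 1 probe set. Both serum arrays read lower than resveratrol for AHRR, at 404 and 391, and for AHR, at 1056 and 1041. AHR itself read 1364 with catechin, 1326 with epicatechin, 1222 with taxifolin, 1281 untreated and 1177 with resveratrol (difference -0.14), and the efflux pump ABCG2 was above the range at 0.41. CYP1A1, the classic target, was at -0.02. In the NRF2 list, 11 of 32 genes were above and 11 below (34.4% each), with a median of -0.05. HMOX1, heme oxygenase 1, read 1883 with catechin, 1814 with epicatechin, 2015 with taxifolin, 1801 untreated and 1436 with resveratrol (difference -0.39), while the serum arrays read 5892 and 5155. GPX1, a glutathione peroxidase, was below the range at -0.36. MAFG, MAFF, GSS, ME1 and CAT were below the range with all probe sets, at -0.35, -0.28, -0.15, -0.08 and -0.09. In the p53 target list, 5 of 25 were above (20%) and 4 below (16%), with a median of 0.02. CDKN1A, the p21 inhibitor, was at 0.04 and MDM2 at 0.04. The largest differences were those of the nuclease AEN (0.34, above the range), SESN2, a stress sensor (-0.32, within it, and 0.08 against all 6 other arrays), and PMAIP1, the death-inducing NOXA (-0.26, below it).

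Immediate early and stress genes lay on the low side. Of 30 immediate early and serum response genes, 23 were negative, 13 were below the range (43.3%) and 3 above (10%), and the median was -0.10. Among all genes 4787 of 9950 were negative, 22.4% were below the range and 23.1% above. SPRY4, a feedback inhibitor of growth factor signalling, read 1086 with catechin, 1723 with epicatechin, 1374 with taxifolin, 1293 untreated and 855 with resveratrol (difference -0.66), and the transcription factor KLF4 read 2724 with catechin, 3383 with epicatechin, 2864 with taxifolin, 2969 untreated and 2249 with resveratrol (difference -0.40). Both serum arrays read KLF4 lower still, at 1639.9 and 652, and against all 6 other arrays its difference was 0.10. ATF3, a stress-induced factor in this list and in that of the unfolded protein response, was above the range with all probe sets at 0.19. FOSL1, EGR1 and MYC were at -0.31, -0.23 and -0.18, and SRF, the serum response factor, was on the other side at 0.35. In the list for the unfolded protein response and ATF4, 14 of 36 genes were below the range (38.9%) and 6 above (16.7%), with a median of -0.10. DDIT3, the transcription factor CHOP, read 3359.8 with catechin, 3675 with epicatechin, 3881 with taxifolin, 3754 untreated and 2557 with resveratrol (difference -0.52), and the stress protein NUPR1 read 1665 with catechin, 1691 with epicatechin, 1569 with taxifolin, 1553 untreated and 1226 with resveratrol (difference -0.40). VLDLR, a lipoprotein receptor, was at -0.39 and within the range, and at 0.08 against all 6 other arrays. Among the members with more than 1 probe set, only ATF3 had all of them outside the range on one side. The serum arrays were lower still on this list, with the resveratrol median 0.21 above control serum and 0.71 above pycnogenol serum, and with all 6 other arrays as the reference the median was 0.08. In the NF-kB and cytokine list, 5 of 25 were below (20%) and 3 above (12%), with a median of -0.01. The neutrophil chemokine CXCL3 read 785 with catechin, 939.9 with epicatechin, 973 with taxifolin, 1124 untreated and 489 with resveratrol (difference -0.95), close to 2-fold lower than the reference mean, and the growth factor CSF1 read 1867 with catechin, 2334 with epicatechin, 1809 with taxifolin, 1828 untreated and 1414 with resveratrol (difference -0.46). TNFAIP2, a target of tumour necrosis factor, was below the range at -0.49.

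The metabolic, survival and matrix lists had medians between -0.04 and 0.08. The shares over all genes were 23.1% above the range and 22.4% below. Of 20 sterol biosynthesis genes, 8 were above the range (40%) and 2 below (10%), with a median of 0.08 and HMGCS1, the cytosolic HMG-CoA synthase, at 2594 with catechin, 2093 with epicatechin, 2298 with taxifolin, 2150.4 untreated and 2870.2 with resveratrol (difference 0.33). NSDHL and MVK, enzymes of the same pathway, were above the range at 0.50 and 0.32. Catechin had the higher list median, at 0.14. In the fatty acid oxidation list, which holds DECR2, 5 of 28 were above (17.9%) and 4 below (14.3%), with a median of 0.01, and CPT1A, the gatekeeper of mitochondrial import, was at -0.32 and the thiolase ACAA2 at -0.32. Of 30 apoptosis regulators, 12 were above (40%) and 7 below (23.3%), with a median of 0.03. BAK1, a pore-forming member of the BCL2 family, read 427 with catechin, 313 with epicatechin, 440.0 with taxifolin, 513 untreated and 622 with resveratrol (difference 0.58), CASP9 was at 0.44 with all probe sets above the range, and BCL2 was at -0.44. In the matrix and invasion list, 5 of 31 were above (16.1%) and 8 below (25.8%), with a median of -0.04. The integrin subunit ITGA5 read 1403 with catechin, 1616 with epicatechin, 1533 with taxifolin, 1563 untreated and 1106 with resveratrol (difference -0.47). ITGA2 read 15652 with catechin, 15424 with epicatechin, 17273 with taxifolin, 16409 untreated and 11944 with resveratrol (difference -0.44), and THBS1, thrombospondin 1, was at 0.27. Of 14 heat shock genes 5 were above (35.7%) and 2 below (14.3%), with a median of 0.04. The co-chaperones STIP1 and DNAJA1 and the chaperone HSPA4 were above the range at 0.27, 0.19 and 0.21. In the hypoxia and glycolysis list, 8 of 34 were above (23.5%) and 9 below (26.5%), with a median of 0.01. The kinase PDK1 was below the range at -0.31, and VHL, which marks hypoxia factors for degradation, was at 0.31 within it.

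**Figure D5:**
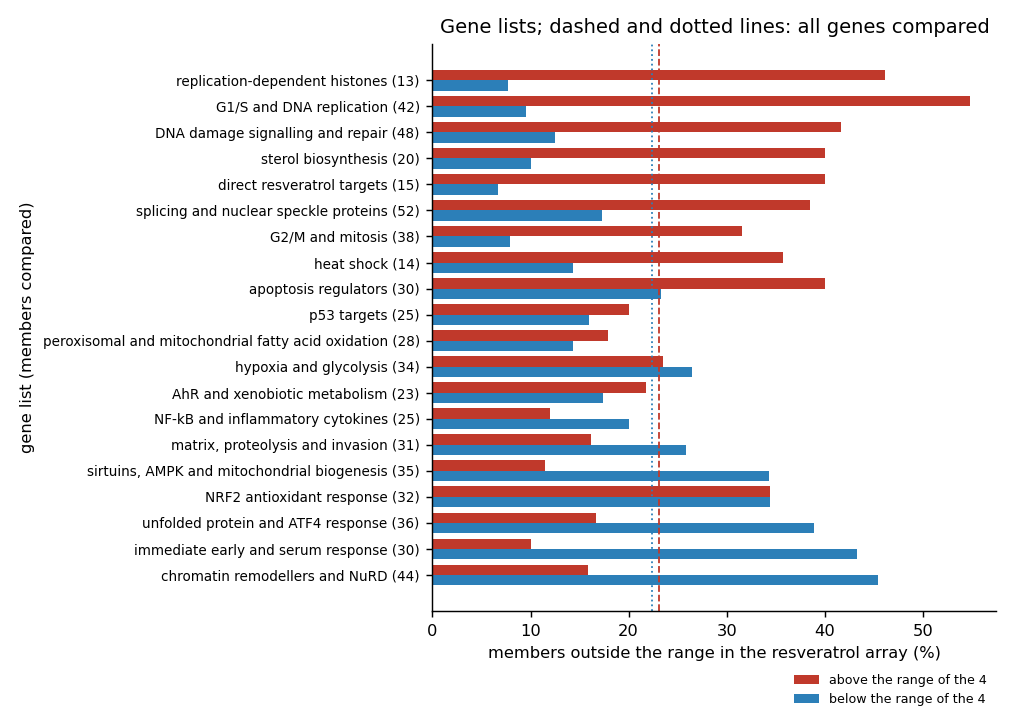
Share of each list's compared genes above (red) or below (blue) the range of the 4 reference arrays in the resveratrol array, with the number compared in brackets and vertical lines at 23.1% above and 22.4% below for all genes. The G1/S list has the highest share above (54.8%), and the chromatin list the highest share below (45.5%).

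The medians of the direct target, DNA damage, G1/S, G2/M, histone, chromatin, splicing, immediate early and sterol lists kept their sign in all 19 alternatives. Those of the other 11 lists changed sign in at least 1. Without the catechin array the aryl hydrocarbon, fatty acid oxidation and hypoxia medians changed sign, and without the taxifolin array the aryl hydrocarbon, p53 and NF-kB medians did.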

How the data were processed

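The deposited values are linear intensities per probe set, which the authors made with MAS5 per the submitters' processing notes. MAS5 subtracts mismatch from perfect-match probes and scales each array, so low signals are noisy. Trimmed by 2% at either end, every array had a mean signal of 1000. Detection calls, array scan batches and the MAS5 version are not given in the sources used here. Of 54675 probe sets, 41091 name 1 gene, 1801 several, 11721 no gene in the table and 62 are controls. Of those that name 1 gene, 41037 matched RefSeq by gene identifier, and the others keep the table's name.

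Signals under 34.9 (the 25th percentile) were set to that floor and then log2-transformed. Probe sets with a mean of at least 269 over the 7 arrays were kept. Differences, ranges and medians were computed with Python 3.11.15, numpy 2.4.6 and pandas 2.3.3, figures with matplotlib 3.10.9, and cyclic loess with limma 3.58.1 in R 4.3.3. The calculations were tested on simulated data. Each group holds 1 array, so no test was run. Genes named are the 15 highest and 15 lowest with all probe sets outside the range; genes with 1 probe set past 2-fold, outside the range in the same direction under quantile and cyclic loess normalization and above the 75th percentile of the array on the brighter side; up to 5 genes in each direction with probe sets of opposite sign; the 3 members of each list with the largest differences; and all direct targets. Any other gene named was chosen after its values were seen. The members and the gene lists were chosen with earlier results of these data known. Motifs were sought in the RefSeq promoters of GRCh38.p14. Some genes are not analysed here.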

Additional observations from a re-analysis of the deposited data

How the results depend on the processing

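No paired analysis was possible because each group holds 1 array. The count of probe sets at least 2-fold apart (57), of those also outside the range (56) and of such genes (26) depended on the filter and threshold: without a filter 2494, 2231 (1627 higher, 604 lower) and 705 (550 higher, 155 lower); with a filter at the 75th percentile of signal 8, 8 and 1; with the filter on the lowest of the 5 arrays 14, 14 and 2; at 1.5-fold 556, 540 and 172; at 3-fold 9, 8 and 6. Against the untreated array alone they were 212, 212 and 67. Without the probe sets named _x_at or _s_at the probe set counts were 31 and 31, with 10390 probe sets compared instead of 17795. Leaving out each reference array gave 59 to 76, 57 to 75 and 26 to 33. The 443 agreeing genes became 227 without the _x_at and _s_at probe sets, with 7410 genes compared instead of 9950. They became 2186 against untreated alone, 169 against all 6 other arrays, and 594 to 683 with a reference array left out. Without a filter they were 355 above and 168 below. SUGP1 changed sign, to 0.0005, with the filter on the geometric mean, with the filter on the lowest array and with the brightest probe set, since each keeps only its brighter probe set. Of the 2038 values of named genes under alternatives 1860 moved by less than the SD across the 4 reference arrays. The sign was opposite in 43 values of 23 genes, SUGP1 included. Against all 6 other arrays they were KLF4 (0.10), SESN2 (0.08), VLDLR (0.08) and CBR1. With the brightest probe set they were RRM1 (-0.03), OR51B5 (-0.02), SRPRA (0.30), LMLN (0.24), ZNF664 (-0.07) and VIM (-0.04). With the filter at the 75th percentile they were FKBP15 (0.03) and ZDHHC2 (-0.10), and without the _x_at and _s_at probe sets CAMKK2 (0.17). Without a filter they were MVK (-0.11), PDE4A (-0.13), TNFAIP2 (0.07) and YARS1 (-0.20). Against untreated alone they were POLG (-0.04), VHL (-0.29) and KEAP1 (0.15). The others were MAOA and NQO2, which lay between -0.10 and 0.10 under all settings. Of 380 list medians, 30 moved by more than the spread of the other arrays. The number of lists with a positive median, 12 of 20, was 10 to 15, and 11 to 13 with a reference array left out. The gap between the longest and shortest genes in median difference, -0.071, was -0.120 against untreated alone. Alternatives on genomic span were chosen after seeing the data. With 1 array per group, culture and array variation cannot be told apart from the compound, and dim signals limit most 2-fold values.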
